A study of Homo sapiens with 15 samples.

Results

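The comparison was between RNA carried by exosomes of JINB8 cells and RNA carried by exosomes of JK cells. JK is the name given to Jurkat, a human T cell leukaemia line, and JINB8 (JinB8) is a CD47-deficient mutant of it, so 1 mutant line stands against its CD47+ parental line. The 3 arrays titled as JINB8 exosome and the 3 titled as JK exosome were taken, 6 of the 15 arrays of the study, and every gene with 1 symbol in the platform annotation, 18417 in all, was compared. The other 9 arrays hold RNA of human umbilical vein endothelial cells (HUVEC), left untreated or kept for 6 h with JK or with JINB8 exosomes, 3 arrays each. For both lines the culture medium held human AB serum, the vesicles were precipitated with an ExoQuick kit from concentrated conditioned medium, and no treatment was given to the exosome donors. Total RNA, short and long, was extracted with a miRNeasy kit and 300 ng were labelled for Affymetrix whole-transcript arrays. The labels do not state whether the 3 replicates of a group came from different cultures, and the p-values may rest on technical spread alone.

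Exosomes are small vesicles that form inside the endosomes of a cell and are released into the medium, carrying proteins, lipids and RNA. Part of that RNA is messenger RNA, in pieces or whole, and part is small RNA such as microRNA. CD47 is a surface protein of most cells. It is a receptor for thrombospondin-1 (THBS1) and the ligand by which a cell engages SIRPA on phagocytes. In T cells, CD47 takes part in adhesion and in the control of activation and of metabolism.

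The genes that were higher in JINB8 exosome RNA included 19 of 64 ribosomal proteins, 7 of 56 translation factors, 6 of 34 glycolysis and hypoxia genes, 5 of 30 heat shock proteins and chaperonins, 9 of 34 genes of the actin cytoskeleton and 8 of 57 histones. Of the 18417 genes, 125 differed at an adjusted p under 0.05 (0.679%), by limma's test with Benjamini-Hochberg adjustment. Of these, 123 were higher in JINB8 exosomes (0.668%) and 2 were lower (0.0109%). The difference was at least 1.5-fold for 74 of them and at least 2-fold for 19. The median difference over all genes was 0.0031 on the log2 scale, and the median of the 123 higher genes was 0.65, with a range of 0.36 to 1.96. At an unadjusted p under 0.05, 959 genes were higher (5.21%) and 525 lower (2.85%). The counts of gene classes and lists at that threshold, given below, are to be read beside these shares.

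The 123 genes had median signals of 6.44, 6.43 and 6.36 (log2) on the 3 JK arrays and of 7.03, 7.06 and 7.21 on the 3 JINB8 arrays. In each of the 125 genes the 3 values of a group lay apart from the 3 of the other. That was so for 12.9% of all genes, 7.35% with JINB8 above and 5.52% with JK above. The 125 genes were picked by a test on these same 6 arrays. Their separation and medians, here and for single genes below, largely follow from that choice and are no further support. Over all genes the array medians were 5.17 on JK replicate 3 and 5.19 to 5.22 on the other 5 arrays, and the 99th percentiles 7.48 and 7.56 to 7.67; the part of this in the results was not tested. JK replicate 3 was the lowest JK array for 75 of the 123 genes, and JINB8 replicate 3 was the highest JINB8 array for 81. Without JK replicate 3, 54 genes passed; without JINB8 replicate 3, 59; and without JINB8 replicate 2, 77. With each array left out in turn, 51 of the 125 genes passed in all 6 fits and 15 in none, and all 125 kept their direction. With all 33297 probesets of the table fitted together, 44 of the 125 genes passed, again with all 125 in the same direction.

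**Figure D1:**
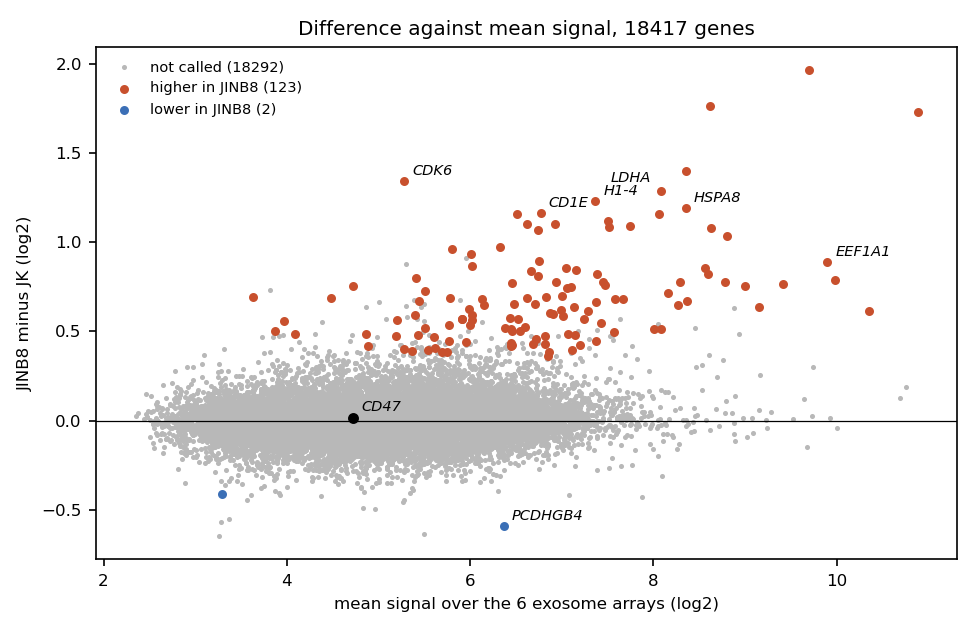
Difference between JINB8 and JK exosome RNA (log2, vertical axis) against mean signal over the 6 arrays (log2, horizontal axis), 1 point per gene. The 123 genes higher in JINB8 are in orange and the 2 lower ones in blue; most coloured points lie at the bright end, while CD47 (black) lies at 0.017.

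The differing genes were mostly bright on the array. When the genes were split into deciles by their mean signal over the 6 arrays, 82 of the 1842 genes in the brightest decile were called higher (4.45%), against 0.0543% to 0.76% in the other deciles. Signal differs between probes as well as between transcripts, so these deciles order array signal and not abundance. The brightest decile held 42 of 64 ribosomal proteins, 12 of 56 translation factors and 14 of 34 glycolysis and hypoxia genes. It also held 10 of 34 actin cytoskeleton genes, 4 of 30 heat shock proteins and chaperonins and 6 of 57 histones. The part of brightness in the counts of these lists was not tested. By class of gene, 120 of the 123 were protein coding, of 16902 measured, and the other 3 were pseudogenes: MTND2P28, RPL13AP5 and RPL13AP20. None of 173 microRNA genes, 175 small nucleolar RNAs or 632 long noncoding RNAs passed the limma threshold. At an unadjusted p under 0.05, the microRNA genes counted 2 higher and 7 lower, the small nucleolar RNAs 1 and 7, and the long noncoding RNAs 17 and 32. Whole-transcript arrays read microRNA genes mainly through their longer precursors, so mature microRNA was not measured here.

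The label of the cells was set beside CD47 and markers of cell types. CD47 itself gave 4.72, 4.69 and 4.72 (log2) in JK exosomes and 4.58, 4.67 and 4.94 in JINB8 exosomes. The groups overlapped, and the difference was 0.017 ± 0.094 (log2, SE, n = 3 each) with an adjusted p of 0.988 in limma. The array value for CD47 therefore does not tell the CD47+ from the CD47- label; where the JinB8 mutation lies relative to the probes was not used here. All 12 of 12 T cell markers (CD3D, CD3E, CD3G, CD247, CD2, CD5, CD7, CD28, LCK, ZAP70, LAT and TRAT1) were above every exosome-treated HUVEC array on all 6 exosome arrays, by a median of 1.42 (log2). CD3D, for example, averaged 6.52 in JK and 6.80 in JINB8 exosomes against 3.58 in treated HUVEC. Yet markers of cells that could leave RNA in human serum stood above treated HUVEC as well: 5 of 5 measured red cell markers by a median of 1.02, 5 of 6 platelet markers by 1.20, 7 of 7 myeloid markers by 1.05, 4 of 4 measured B cell markers by 0.75 and 5 of 5 liver genes by 0.84. The endothelial markers stood 4.74 lower by the median, with 0 of 7 above. Whether HUVEC and exosome arrays were normalized together is not given in the sources used here, so these levels are set across material of unlike make-up. The share of all genes that lie above treated HUVEC in this way was not counted. These counts therefore do not tell from which cells the RNA came.

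No marker of any of these classes differed between the exosome groups at an adjusted p under 0.05. The mean of the 12 T cell markers ran from 5.79 to 5.90 (log2) over the JK arrays and from 5.97 to 5.99 over the JINB8 arrays. The corresponding ranges were 5.34 to 5.48 and 5.33 to 5.42 for red cell markers, 5.23 to 5.32 and 5.26 to 5.30 for platelet markers, 4.85 to 4.91 and 4.85 to 4.92 for myeloid markers, 5.19 to 5.35 and 5.23 to 5.24 for B cell markers and 4.97 to 5.07 and 4.91 to 4.94 for liver genes. The T cell markers were thus the class whose ranges lay apart with JINB8 above, while the liver genes lay apart with JK above. Among the T cell markers, CD3E, CD3G and CD3D had the largest differences (0.37, 0.34 and 0.28). The others ran from -0.036 for CD247 to 0.17 for TRAT1, so the shift was not even over the class. The part of these shifts in the results below was not tested.

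Ribosomal proteins were the largest group. Cytoplasmic ribosomes are built from ribosomal RNA and a set of proteins of the small (RPS) and large (RPL) subunit, whose messages are among the most abundant of a dividing cell. Of 64 measured genes, 19 were higher in JINB8 exosomes (29.7%, against 0.668% of all genes) and 0 were lower. The list's median difference was 0.37 against 0.0031 for all genes. In 57 of the 64 the sign was positive, and 42 of the 64 belonged to the brightest decile. The median signal of the list was 6.90, 7.03 and 6.82 on the JK arrays and 7.28, 7.39 and 7.51 on the JINB8 arrays, without overlap. Many of these genes have near-identical processed copies in the genome, so single members are uncertain.

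RPL30, a protein of the large subunit, gave 7.05, 7.06 and 6.82 (log2) in JK and 7.74, 8.17 and 8.27 in JINB8 exosomes. That was 1.08 ± 0.12 (log2, SE) or 2.12-fold, with an adjusted p of 0.00102. RPL18 gave 8.21, 8.27 and 8.09 in JK and 8.86, 8.96 and 9.21 in JINB8 exosomes, a difference of 0.82 ± 0.096 with an adjusted p of 0.00119. RPL8 differed by 0.77 ± 0.084, from 8.51, 8.36 and 8.30 to 9.07, 9.17 and 9.26, and in all these genes every JINB8 value was above every JK value. RPL3 differed by 0.82 ± 0.13 (adjusted p 0.0103). Its call was lost without JK replicate 1 (adjusted p 0.0523) and without JK replicate 3 (adjusted p 0.0877). The other called members ran from RPS19, at 0.43 ± 0.087, to RPS28, at 0.77 ± 0.092. RPL30, RPL18, RPL8, RPS28, RPS4X and RPL5 passed in all 6 fits that left out 1 array, and RPS19 and RPL27 in none. The number of ribosomal protein genes called was 6 without JK replicate 3, 7 without JINB8 replicate 3, 11 without JINB8 replicate 2 and 12 without JK replicate 1, and 12 after quantile normalization, with medians of the list between 0.27 and 0.42 over these and the other settings run. Mitochondrial ribosomal proteins, which serve the separate ribosomes of mitochondria, had 0 of 73 genes called by limma (7 higher and 0 lower at an unadjusted p under 0.05) and a median of 0.048.

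Most ribosomal protein genes and several elongation factors start transcription in a run of pyrimidines, which puts a terminal oligopyrimidine tract at the 5′ end of the message, a feature by which growth signals control translation. The start windows of genes that differed are shown to let these tracts be seen: 30 bases around the annotated RefSeq start in GRCh38.p14, in the sense of the gene, with an unbroken run of at least 7 C or T that lies within 5 bases of the start in capitals. RPL18, on the minus strand at chr19:48619164-48619193, RPLP2, on the plus strand at chr11:809952-809981, RPL35, on the minus strand at chr9:124861943-124861972, RPS16, on the minus strand at chr19:39435935-39435964, and the elongation factors EEF2, on the minus strand at chr19:3985449-3985478, and EEF1A1, on the minus strand at chr6:73521018-73521047, hold such a run. RPL3, on the minus strand at chr22:39319609-39319638, and EEF1G, on the minus strand at chr11:62573877-62573906, do not.
RPL18: accccagcccgTTCTCTCTTTCCggacctg
RPLP2: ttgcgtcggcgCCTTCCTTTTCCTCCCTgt
RPL35: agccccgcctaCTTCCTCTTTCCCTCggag
RPS16: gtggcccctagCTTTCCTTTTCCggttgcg
EEF2: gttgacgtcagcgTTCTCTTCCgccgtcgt
EEF1A1: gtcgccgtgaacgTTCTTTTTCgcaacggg
RPL3: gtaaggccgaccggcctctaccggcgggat
EEF1G: tctcccgggcggcttactttgcggcagcgc

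A run of this kind stood at the start of 15.7% of 27305 promoters of the RefSeq table and of 15.5% of the 14239 that belong to measured genes. Among ribosomal protein genes with an entry, it was present in 12 of the 15 called higher (80%) and in 28 of the 38 not called (73.7%). Among the 102 higher genes with an entry it was present in 30 (29.4%), and in 15 of the 82 (18.3%) once ribosomal proteins and translation factors were left out. Over all measured genes the median difference was 0.0054 with a run and 0.0025 without. In the brightest decile, 26 of 253 genes with a run were called higher (10.3%), and 41 of 1066 without (3.85%). These shares describe letters in a window of an annotated start, and 21 of the 125 differing genes had no entry in the table.

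Of the factors that start and carry out translation, 7 of 56 were higher (12.5%, against 0.668% of all genes) and 0 lower, with a median of 0.089. EEF1G, a subunit of the complex that recharges the elongation factor EEF1A, gave 8.03, 8.15 and 8.09 (log2) in JK and 9.03, 9.05 and 9.42 in JINB8 exosomes. The difference was 1.08 ± 0.10, or 2.11-fold, with an adjusted p of 0.000268. EEF1A1, which brings aminoacyl-tRNA to the ribosome, gave 9.43, 9.62 and 9.30 against 10.21, 10.24 and 10.56, a difference of 0.89 ± 0.11. EEF2, the translocase of the ribosome, differed by 0.90 ± 0.10 and EIF1, which helps to choose the start codon, by 0.86 ± 0.086. In each of these the groups did not overlap. PABPC1, which binds the poly(A) tail (0.74 ± 0.11), EIF3I (0.69 ± 0.099) and EIF3A (0.40 ± 0.075) were the others. With any 1 array left out, 6 or 7 translation factors were called; EIF3A was the member that was lost, in 5 of the 6 fits (adjusted p 0.0713 to 0.128).

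**Figure D2:**
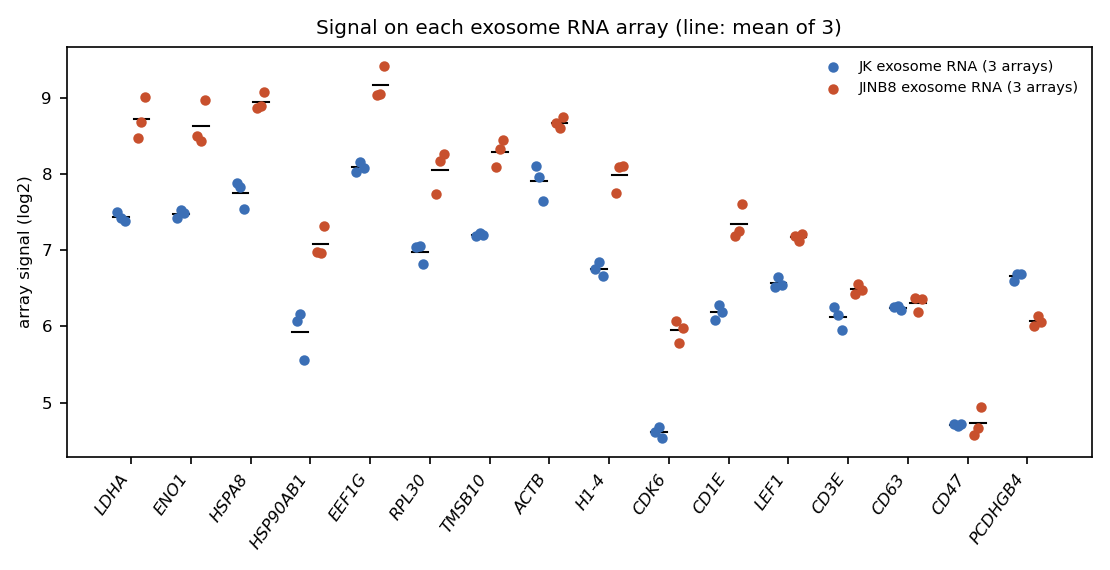
Signal (log2) of 16 named genes on each of the 3 JK (blue) and 3 JINB8 (orange) exosome arrays, with lines at the group means. From LDHA to LEF1 every JINB8 value is above every JK value; CD63 and CD47 overlap, CD3E does not overlap but missed the threshold (adjusted p 0.112), and PCDHGB4 is lower in JINB8.

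Of the glycolysis and hypoxia genes, 6 of 34 were higher in JINB8 exosomes (17.6%, against 0.668% of all genes), by up to 2.44-fold, and 0 were lower. Glycolysis turns glucose into pyruvate, and lactate dehydrogenase turns pyruvate into lactate, the main fate of glucose in growing T cells. LDHA, the muscle-type subunit of lactate dehydrogenase, gave 7.505, 7.42 and 7.38 (log2) in JK and 8.47, 8.69 and 9.01 in JINB8 exosomes. The difference was 1.29 ± 0.12, or 2.44-fold, with an adjusted p of 0.000218. ENO1 (enolase) gave 7.42, 7.53 and 7.49 against 8.50, 8.44 and 8.97, or 1.16 ± 0.12. All 3 JINB8 values of both genes were above the JK values, with JINB8 replicate 3 the highest. LDHB, the heart-type subunit, differed by 0.85 ± 0.12, GAPDH by 0.79 ± 0.14, PGK1 (phosphoglycerate kinase) by 0.77 ± 0.11 and TPI1 (triose phosphate isomerase) by 0.42 ± 0.083. These were the 6 genes called, and the median of the list was 0.12. The median signal of the whole list did not separate the groups, at 6.15, 6.14 and 6.10 in JK and 6.14, 6.17 and 6.14 in JINB8 exosomes. LDHA, ENO1, LDHB and PGK1 passed with any 1 array left out. GAPDH differed by 0.33 (adjusted p 0.258) after quantile normalization, and its adjusted p was 0.0662 without JK replicate 2, 0.129 without JK replicate 3, 0.0767 without JINB8 replicate 2 and 0.0849 without JINB8 replicate 3. TPI1 passed only without JK replicate 2 (adjusted p 0.0642 to 0.196 in the other 5 fits).

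Heat shock proteins and chaperonins, which fold other proteins, had 5 of 30 genes higher (16.7%, against 0.668% of all genes), 0 lower and a median of 0.19. HSPA8, the constitutive HSP70 and a protein often found in exosomes, gave 7.88, 7.83 and 7.55 (log2) in JK and 8.87, 8.89 and 9.08 in JINB8 exosomes. That was a difference of 1.19 ± 0.10, or 2.28-fold, with an adjusted p of 0.000162. HSP90AB1, the constitutive cytosolic HSP90, gave 6.07, 6.16 and 5.55 against 6.97, 6.97 and 7.32, and differed by 1.16 ± 0.15. Here JK replicate 3 was well below the other JK arrays, and the call held without it. HSP90AA1, the inducible HSP90, differed by 0.87 ± 0.098, and the chaperonin subunits TCP1 and CCT7 by 0.84 ± 0.090 and 0.60 ± 0.10. All but CCT7 passed with any 1 array left out; CCT7 was lost without JK replicate 2 or 3 and JINB8 replicate 2 or 3 (adjusted p 0.0745 to 0.106).

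Genes of the actin cytoskeleton, the filaments that shape and move the cell, had 9 of 34 higher (26.5%, against 0.668% of all genes). In this list 0 were lower and the median was 0.18. TMSB10, a thymosin that binds actin monomers, gave 7.19, 7.22 and 7.20 (log2) in JK and 8.10, 8.33 and 8.45 in JINB8 exosomes. The difference was 1.09 ± 0.092, or 2.13-fold, with an adjusted p of 0.000162. ACTB (beta actin) gave 8.10, 7.96 and 7.64 against 8.67, 8.61 and 8.75, a difference of 0.77 ± 0.11. LCP1, the actin bundler of leukocytes, differed by 0.78 ± 0.11, and PFN1 (profilin) by 0.68 ± 0.11. ACTG1, ARPC2, CAPZB, CORO1A and CFL1 made up the rest, from 0.43 to 0.67. TMSB10, ACTB and LCP1 passed with any 1 array left out; CAPZB was lost in 2 of the 6 fits, CORO1A and PFN1 in 3, ACTG1 in 4, and ARPC2 and CFL1 in 5. The count fell to 3 without JK replicate 3 and to 4 without JINB8 replicate 3; the call of PFN1 was lost without JK replicate 2 (adjusted p 0.0647), JK replicate 3 (0.107) or JINB8 replicate 3 (0.0627). Of tubulins and kinesin motors, 2 of 69 were higher, TUBB (1.04 ± 0.096) and MAPRE1, a protein of growing microtubule ends (0.57 ± 0.076). The 3 probesets of TUBB held the same values and count as 1.

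Replication-dependent histones are made in S phase, and their messages end in a stem-loop in place of a poly(A) tail. Of 57 measured, 8 were higher (14%, against 0.668% of all genes), 0 lower, and the median was 0.21. H1-4, a linker histone, gave 6.75, 6.85 and 6.66 (log2) in JK and 7.75, 8.09 and 8.11 in JINB8 exosomes. The difference was 1.23 ± 0.10, or 2.35-fold, with an adjusted p of 0.000162. H3C11 gave 6.70, 6.26 and 6.16 against 7.32, 7.51 and 7.59, or 1.10 ± 0.13, with JK replicate 1 the nearest to the JINB8 arrays. H4C3 (0.84 ± 0.099), H4C13 (0.80 ± 0.12), H2AC21 (0.69 ± 0.11), H4C5 (0.65 ± 0.12), H2BC14 (0.56 ± 0.096) and H1-5 (0.40 ± 0.076) followed. Histone genes of a family are near-identical in sequence, so the members cannot be told apart with certainty. H1-4, H3C11 and H4C3 passed with any 1 array left out; H4C13 was lost in 1 of the 6 fits, H2AC21, H4C5 and H2BC14 in 4, and H1-5 in 5. The count was 3 without JK replicate 3, and 4 each without JINB8 replicate 2 or JINB8 replicate 3. With all 15 arrays in 1 fit it was also 4, and there H3C11 (adjusted p 0.215), H4C3 (0.0990), H4C13 (0.137), H2BC14 (0.585) and H1-5 (0.633) missed the threshold. Genes of DNA replication and S phase had 0 of 39 called by limma (7 higher and 1 lower at an unadjusted p under 0.05), and those of G2/M and mitosis 0 of 41 (5 and 1).

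**Figure D3:**
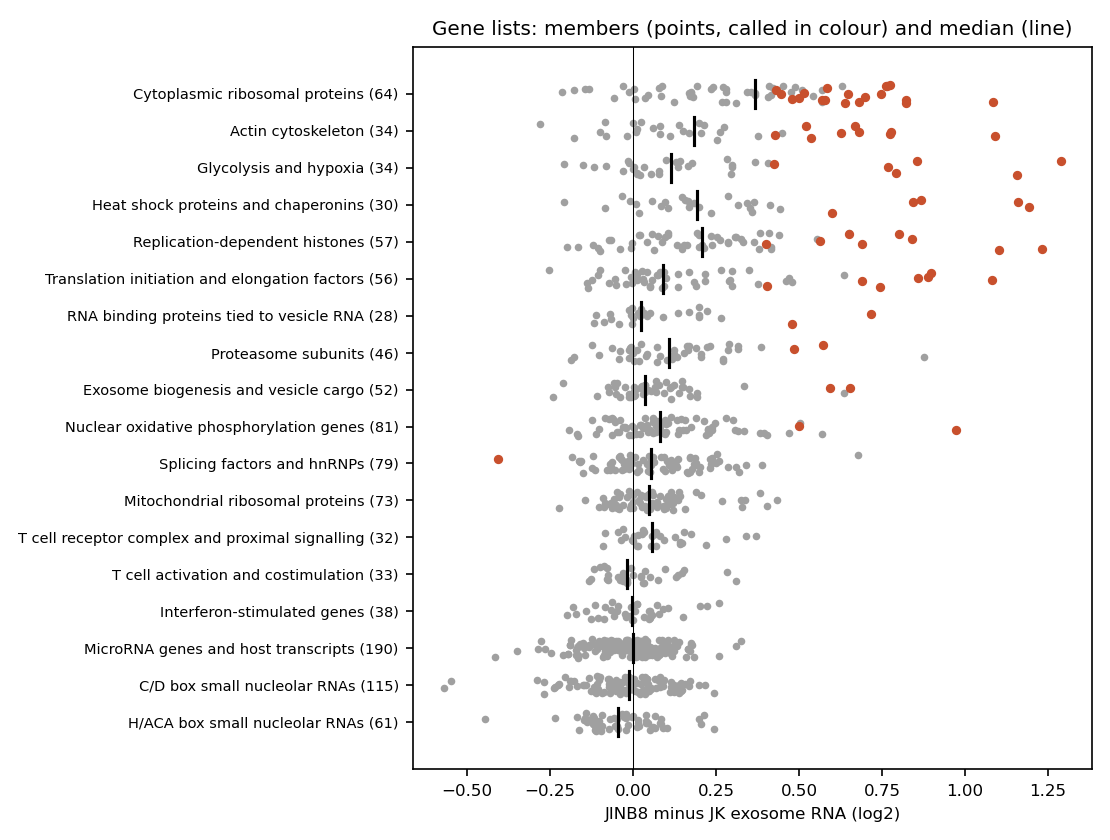
Difference between JINB8 and JK exosome RNA (log2) for the measured members of 18 gene lists, their number in parentheses; points are genes, orange for an adjusted p under 0.05, and black lines are medians. The upper 6 lists reach from 5 to 19 called genes each, while the small RNA lists at the bottom have medians near 0 and no called gene.

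Among single genes outside these groups, CDK6 stood out by its separation. CDK6 is the cyclin-dependent kinase that works with D cyclins in G1 and is prominent in T cells. It gave 4.62, 4.67 and 4.53 (log2) in JK and 6.08, 5.79 and 5.98 in JINB8 exosomes, 1.34 ± 0.088 or 2.53-fold, with an adjusted p of 3.33e-05. Of 10 measured cyclin-dependent kinases and D cyclins, a list added after the values were seen, it was the 1 called. CD1E, a member of the CD1 family of lipid-presenting molecules that immature T cells carry, gave 6.08, 6.29 and 6.19 against 7.18, 7.26 and 7.61, 1.16 ± 0.11 or 2.24-fold. The adjusted p was 0.000218, and of the 5 CD1 genes the other 4, CD1A, CD1B, CD1C and CD1D, had differences of 0.25, 0.087, 0.018 and 0.092 with overlapping groups. LEF1, a transcription factor of early T cells and of Wnt signalling, gave 6.51, 6.65 and 6.55 against 7.19, 7.13 and 7.21, 0.61 ± 0.075 with an adjusted p of 0.00187. It was the 1 of 38 T lineage and leukaemia transcription factors that was called. CSNK2B, the regulatory subunit of casein kinase 2 (1.12 ± 0.11), and SLIRP, an RNA-binding protein of mitochondria (1.10 ± 0.10), were the remaining genes among the 15 highest.

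Further lists, written after the values were seen, showed where other called genes belong. Their counts follow from that choice and are a description only, beside 0.668% of all genes called higher. Of 7 members of the 14-3-3 family, adaptors that bind phosphorylated proteins, 3 were higher: YWHAE (0.78 ± 0.11), YWHAQ (0.67 ± 0.10) and YWHAZ (0.51 ± 0.083). Of 18 genes of purine nucleotide metabolism, 4 were higher, PAICS (0.69 ± 0.091), ADA (0.62 ± 0.13), IMPDH2 (0.45 ± 0.089) and NME2 (0.43 ± 0.083). Of 12 septins, 2 were higher, SEPTIN9 and SEPTIN6. YWHAE and PAICS passed with any 1 array left out. YWHAQ was lost in 3 of the 6 fits, YWHAZ, NME2 and SEPTIN9 in 5, and ADA, IMPDH2 and SEPTIN6 in all 6. Apart from these added lists, 69 of the 125 called genes were in a list and 56 in none.

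Other cell functions gave few calls. Nuclear genes of oxidative phosphorylation had 2 of 81 higher (2.47%), ATP5F1B of the ATP synthase (0.97 ± 0.14) and NDUFB5 of complex I (0.50 ± 0.078), and a median of 0.080. Without JK replicate 3 the adjusted p of ATP5F1B was 0.0651 and that of NDUFB5 0.0723, and NDUFB5 was not called without JINB8 replicate 3 (0.0627). Proteasome genes had 2 of 46 higher, PSMD8 (0.57 ± 0.087) and the assembly factor POMP (0.48 ± 0.091). The call of POMP was lost without any 1 of JK replicates 1, 2 and 3 and JINB8 replicates 2 and 3 (adjusted p 0.0585 to 0.153). Of RNA-binding proteins tied to vesicle RNA, 2 of 28 were higher. YBX1, a protein known to sort RNA into exosomes, gave 7.80, 7.88 and 7.73 (log2) against 8.48, 8.48 and 8.60, a difference of 0.72 ± 0.077 with an adjusted p of 0.000665. SSB (La) differed by 0.48 ± 0.089, and its call was lost without any 1 of JK replicates 1, 2 and 3 and JINB8 replicates 2 and 3 (adjusted p 0.0616 to 0.163). Of cholesterol and fatty acid synthesis genes, FADS2 alone of 25 was higher (0.42 ± 0.080), and it missed the threshold with any 1 array left out (adjusted p 0.0575 to 0.152).

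Of 52 genes of exosome biogenesis and vesicle cargo, 2 were higher (3.85%, against 0.668% of all genes), and the median was 0.035. At an unadjusted p under 0.05, 6 were higher and 2 lower. The tetraspanins of the vesicle membrane had differences of -0.051 for CD9, 0.067 for CD63 and 0.11 for CD81, all with overlapping groups. CD63 gave 6.25, 6.26 and 6.21 (log2) in JK and 6.38, 6.19 and 6.36 in JINB8 exosomes. ANXA6, a membrane-binding annexin, gave 6.29, 6.26 and 5.92 against 6.67, 6.80 and 6.96, a difference of 0.65 ± 0.11 with an adjusted p of 0.0152. Its call was lost without JK replicate 3 (0.0700), JINB8 replicate 2 (0.0606) or JINB8 replicate 3 (0.0904). RAB7A, the GTPase of late endosomes, differed by 0.59 ± 0.10 (adjusted p 0.0223). A second probeset of RAB7A differed by 0.12 (adjusted p 0.799 over all probesets). The call of RAB7A was also lost without JK replicate 2 (0.0897), JK replicate 3 (0.131), JINB8 replicate 2 (0.102) or JINB8 replicate 3 (0.104).

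Of CD47, its SIRP and thrombospondin ligands and integrin partners, 21 genes, 1 was called. That was UBQLN1, a ubiquilin that binds ubiquitinated proteins (0.40 ± 0.074, adjusted p 0.0299), and it missed the threshold with any 1 array left out (adjusted p 0.0575 to 0.146). SIRPA differed by -0.020 ± 0.072, SIRPG by -0.078 ± 0.083 and THBS1 by -0.16 ± 0.11, all with overlapping groups. The list's median was -0.021. Beside the count of 1, the list held 2 genes higher and 1 lower at an unadjusted p under 0.05.

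Of the T cell receptor complex and its proximal signalling, 0 of 32 genes were called by limma, with 4 higher and 0 lower at an unadjusted p under 0.05 and a median of 0.055. CD3E, a signalling chain of the receptor, gave 6.25, 6.15 and 5.95 (log2) in JK and 6.43, 6.56 and 6.48 in JINB8 exosomes. The groups did not overlap, and the difference of 0.37 ± 0.089 had an adjusted p of 0.112. CD3G differed by 0.34 (adjusted p 0.172), CD3D by 0.28 (0.436), and CD247, the zeta chain, by -0.036 (0.975). LCK and ZAP70, the kinases that start the receptor's signal, differed by 0.081 and 0.14, and LAT, their adaptor, by 0.028. The coreceptors and surface molecules CD2, CD4, CD5, CD7, CD28 and PTPRC lay between -0.024 and 0.15. Genes of T cell activation and costimulation had 0 of 33 called (2 higher and 0 lower at an unadjusted p under 0.05) and a median of -0.017. Interferon-stimulated genes, 38 measured, counted 0 called with 1 and 2 at an unadjusted p under 0.05. Class II MHC genes, 11 measured, counted 0 called and 0 at an unadjusted p under 0.05.

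In 9 further lists no gene was called higher by limma. Splicing factors and hnRNPs, 79 measured, had 17 higher and 2 lower at an unadjusted p under 0.05. For ATF4, CHOP and unfolded protein response genes (28) these counts were 4 and 0, for NRF2 targets (22) 3 and 0, for the NF-kB and TNF pathway (31) 0 and 0, and for apoptosis and p53 targets (27) 1 and 0. For chemokines and their receptors (28) they were 2 and 0, for integrins and leukocyte adhesion (30) 1 and 0, for immediate early genes (33) 0 and 0, and for zinc finger genes (480) 10 and 14. The medians of these 9 lists lay between -0.034 and 0.055. Class I MHC and antigen processing (21) had CD1E as its 1 called gene.

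Small RNAs were of interest because exosomes are known for carrying them, and the extraction kept them. Of 115 C/D box small nucleolar RNAs, 0 were called by limma, with 1 higher and 7 lower at an unadjusted p under 0.05 and a median of -0.013. H/ACA box members, 61 measured, had 0 called, with 1 and 1, and 190 microRNA genes and host transcripts had 0 called, with 3 and 9. The list's median signals overlapped between groups, at 4.19, 4.23 and 4.25 (log2) in JK and 4.24, 4.26 and 4.23 in JINB8 exosomes for the microRNA list. Small Cajal body RNAs (16) had 0 and 0 at an unadjusted p under 0.05, spliceosomal small nuclear RNAs (23) 2 and 0, the vault, Y, 7SL, 7SK and RNase P RNAs (7) 1 and 0, and T cell receptor gene segments (3) 0 and 0, none of them called. Of 360 olfactory receptor genes, which T cells do not need, 0 were called by limma. At an unadjusted p under 0.05, 4 were higher and 37 lower, and the median was -0.043. Over all genes, 5.21% were higher and 2.85% lower at that threshold, beside which all counts of this paragraph stand.

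The other direction had 2 genes, PCDHGB4 and SNRPA1, lower in JINB8 exosomes. PCDHGB4, a clustered gamma protocadherin, gave 6.59, 6.69 and 6.69 (log2) in JK and 6.01, 6.14 and 6.06 in JINB8 exosomes. It fell by 0.59 ± 0.075 on the log2 scale, to 0.665-fold, with an adjusted p of 0.0023. It was the only clustered gamma protocadherin with a probeset of 1 symbol. SNRPA1, a protein of the U2 small nuclear ribonucleoprotein, gave 3.51, 3.56 and 3.43 against 3.02, 3.16 and 3.09, and fell by 0.41 ± 0.077 with an adjusted p of 0.0315. Leaving out any 1 of the 6 arrays ended that call (adjusted p 0.0606 to 0.129), and its signal was in the dimmest decile. Among lower genes that did not pass, the 5 named for their smallest p in limma were CYP2B6 (-0.37, adjusted p 0.0532), AP3M1 (-0.46, 0.0642), ACTR3C (-0.35, 0.0788), CC2D2B (-0.36, 0.0881) and IGF2BP2-AS1 (-0.31, 0.0891). Their groups did not overlap.

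**Figure D4:**
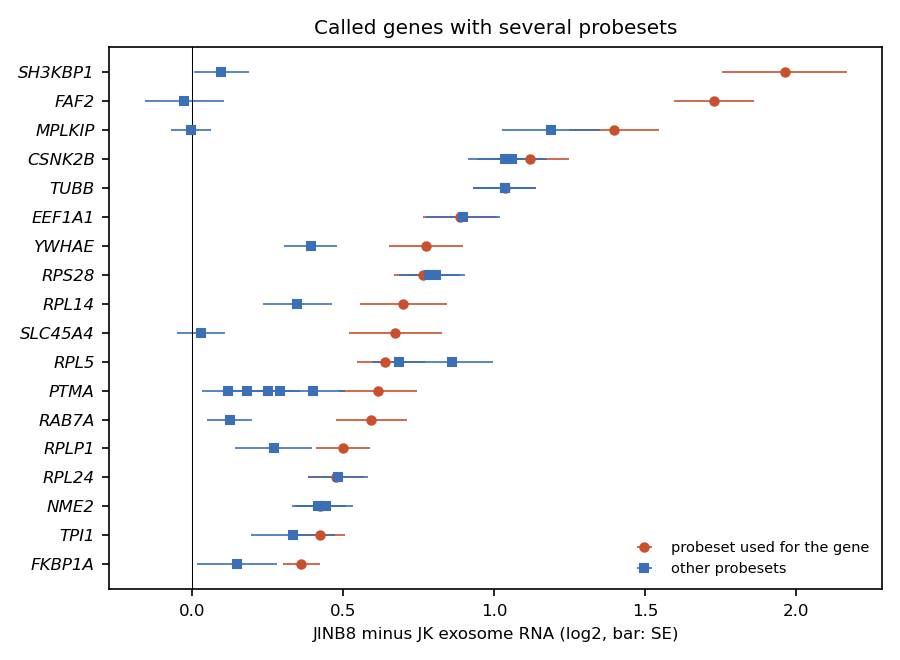
Difference between JINB8 and JK exosome RNA (log2, bars are SE) for the 18 called genes with several probesets, orange circles for the probeset used and blue squares for the others. The squares of SH3KBP1 and FAF2 lie near 0, those of CSNK2B, EEF1A1 and RPL5 beside or beyond the circle.

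The 4 highest values of all rest on probesets that need a remark. They were SH3KBP1, an adaptor of endocytosis (1.96 ± 0.17, or 3.90-fold), MTND2P28, a nuclear pseudogene of a mitochondrial gene (1.76 ± 0.13), FAF2, a factor of protein degradation at the endoplasmic reticulum (1.73 ± 0.12), and MPLKIP, a nuclear protein of mitosis (1.40 ± 0.13). SH3KBP1 gave 8.35, 8.999 and 8.81 (log2) in JK and 10.31, 10.92 and 10.80 in JINB8 exosomes. Another probeset of SH3KBP1 differed by 0.097 (adjusted p 0.904 over all probesets) and another of FAF2 by -0.026. Of the other 2 probesets of MPLKIP, 1 differed by 1.19 and 1 by -0.0038. The probesets used for these 4 genes lie within a run of 29 neighbouring probeset identifiers, of which the other 25 have no symbol in the annotation. In the fit of all probesets 27 of the 29 were higher at an adjusted p under 0.05, where 1.03% of all unlisted probesets passed in either direction. Their median difference was 1.70 (0.44 to 2.75), a run picked for its values and given with no test. The run's median signal was 7.78, 8.38 and 8.24 on the JK arrays and 9.48, 9.96 and 10.04 on the JINB8 arrays. What the 25 unlisted probesets detect is not named here, so the 4 names are uncertain; without the run 120 genes were called, 118 higher and 2 lower.

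Of the 18 called genes with several probesets, every other probeset pointed the same way at an unadjusted p under 0.05 in 10, among them EEF1A1, RPL5, CSNK2B and YWHAE. For 6 genes (FAF2, SH3KBP1, RAB7A, RPLP1, FKBP1A and SLC45A4) no other probeset did so, and for MPLKIP and PTMA some did. The 10 include TUBB, whose probesets held the same values. Whether the probesets of a gene read separate sequence was not checked, so agreement may not be a second measurement.

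The same contrast was available in HUVEC kept with the exosomes for 6 h, on arrays that the exosome comparison does not use. There 0 genes differed between JINB8-treated and JK-treated cells at an adjusted p under 0.05 in limma (smallest adjusted p 0.0644), and 1678 had an unadjusted p under 0.05 (9.11%). Without HUVEC JK replicate 1 there was 1 gene, and without HUVEC JK replicate 3 or HUVEC JINB8 replicate 1 there were 3. The 123 genes that were higher in JINB8 exosomes had a median difference of -0.066 (log2) in HUVEC, against -0.019 for all genes, and ran from -0.97 to 0.44. Of them, 45 were positive and 78 negative, against 8144 and 10273 of all genes. At an unadjusted p under 0.05, 3 were higher (2.44%, against 4.46% of all genes) and 16 lower (13%, against 4.65%). In 10 the JINB8-treated values were all above the JK-treated (7.68% of all genes) and in 26 all below (9.78%). As a description over 123 genes measured on the same arrays, the exosome and HUVEC differences had a Pearson r of 0.093 and a Spearman rank correlation of 0.10. Without the 4 genes of the probeset run, over 119 genes, these were -0.066 and 0.029, and over all genes they were -0.064 and -0.055.

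Ribosomal protein and histone genes had mostly negative HUVEC values, and so had some lists with few or no calls in exosome RNA. At an unadjusted p under 0.05, 0 ribosomal proteins were higher and 18 lower of 64. For histones these counts were 1 and 11 of 57, with a median of -0.12. Over all genes, 4.46% were higher and 4.65% lower. The difference from the exosome values was not tested. The HUVEC median was -0.15 for oxidative phosphorylation genes (0 higher and 23 lower of 81 at an unadjusted p under 0.05). It was -0.14 for mitochondrial ribosomal proteins (0 and 10 of 73) and -0.15 for interferon-stimulated genes (0 and 1 of 38). For heat shock and glycolysis genes it was 0.028 and 0.0042. The ribosomal protein list had a median of -0.17 in HUVEC. RPL35 (-0.32 ± 0.11), RPLP1 (-0.32 ± 0.11) and RPS20 (-0.29 ± 0.11) were among the 16 of the 123 genes that were lower at an unadjusted p under 0.05. So were the histones H3C11 (-0.97 ± 0.37), H1-4 (-0.63 ± 0.23), H4C3 (-0.59 ± 0.25) and H4C13 (-0.58 ± 0.24). The groups of these 4 histones overlapped in HUVEC. The 3 with positive values were CAPZB (0.29 ± 0.10), RAB7A (0.27 ± 0.086) and FADS2 (0.26 ± 0.10). None of these HUVEC differences passed adjustment, with adjusted p of 0.311 or more among the 123. LDHA (-0.024), HSPA8 (0.063), CDK6 (0.078) and EEF1A1 (0.022) were near 0 in HUVEC.

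**Figure D5:**
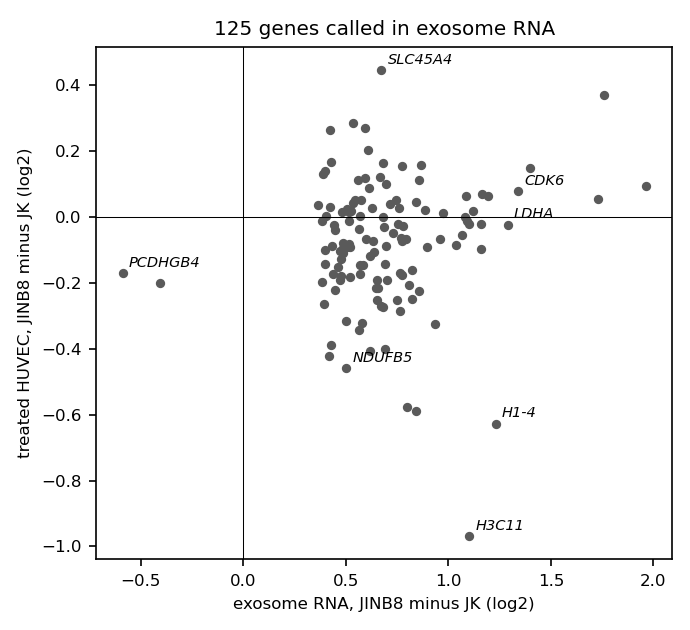
Difference of JINB8 against JK in treated HUVEC (log2, vertical axis) against the same difference in exosome RNA (log2, horizontal axis) for the 125 called genes, 1 point each. Of the 123 genes to the right of 0, 78 lie below 0 in HUVEC (10273 of all 18417 genes do), with H3C11 the lowest at -0.97.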

How the data were processed

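The authors deposited 1 table of 33297 probesets on 15 arrays, with values on the log2 scale by their range. Per the submitters' processing notes it was made with Affymetrix Expression Console; the version, the background correction and the normalization are not given there or in any other source at hand, and no detection calls were used. Of the probesets, 19460 had 1 gene symbol in the platform annotation, 1754 several and 12083 were not listed. A gene with several probesets was read from the 1 that was brightest on average across the 15 arrays (18417 genes, 769 of them with several).

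The 3 JINB8 and 3 JK exosome arrays were fitted with limma 3.58.1 in R 4.3.3 (lmFit, then eBayes without a trend or robust option; 4 residual degrees of freedom). P-values were adjusted by Benjamini and Hochberg's method over the 18417 genes, at a threshold of 0.05. Genes past it are called; ± gives limma's moderated standard error, with n = 3 per group. HUVEC contrasts came from 1 fit of 9 arrays (6 residual degrees of freedom). An exact two-sided permutation test of 3 against 3 arrays cannot give a p below 0.1. Array number limits the precision.

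The text names CD47 and fixed T cell and vesicle genes, the 15 highest and 15 lowest called genes, up to 4 called members of each of 45 lists in each direction, and, where fewer than 10 genes pass in a direction, the 5 with the smallest p. Members beyond these, such as further ribosomal proteins and histones, were named after their values were seen, as were 7 lists, 1 of which is not reported here. All members and lists were chosen with earlier results of these data known. Start windows are from RefSeq promoters (GRCh38.p14). The fit was tested on simulated data. Alternatives were other normalizations, a filter on the 40% dimmest genes, other probeset choices, variance models, array weights, a replicate block, all 15 arrays, other thresholds and each array left out.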

Additional observations from a re-analysis of the deposited data

Results flagged for a closer look

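Of the 123 genes higher in JINB8 exosomes, 26 were lower on all 3 JINB8-treated than on all 3 JK-treated HUVEC arrays. Among all genes, 9.78% were. The difference between exosomes and HUVEC was not tested. Of these 26, 4 are among the genes that the naming rule picked. Their HUVEC differences (log2, JINB8 minus JK) were -0.097 for ENO1, -0.16 for RPL18, -0.18 for RPL8 and -0.46 for NDUFB5, against 1.16, 0.82, 0.77 and 0.50 in exosome RNA.

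Probesets outside the named genes also differed, in a fit of all 33297 probesets. Of the 12083 that the annotation does not list, 119 were higher in JINB8 exosomes and 6 lower, and of the 1754 with several symbols 2 were higher. The 119 include unlisted probesets of the run of neighbouring identifiers described above. Among the unlisted ones outside that run, the 2 highest differed by 2.75 and 2.60 and the lowest by -1.86 (log2). The probeset at 2.75 held the same exosome array values as an unlisted probeset of the run. The lowest gave 5.38, 5.16 and 5.45 in JK and 3.47, 3.37 and 3.58 in JINB8 exosomes.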

How the results depend on the processing

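The main count of 125 genes (123 higher, 2 lower) stayed within 1.5 times under the settings that kept all 6 arrays and counted genes. The exceptions were 74 genes (73 and 1) with an added 1.5-fold minimum, and the lower genes alone after quantile normalization, which numbered 7. The fit of all probesets called 181 probesets (174 higher, 7 lower), which are not genes. Of the probesets with 1 symbol, 53 were higher and 1 lower there, and only 44 of the 125 genes passed. Leaving out 1 array gave 54 to 100 genes, 53 to 96 higher and 1 to 4 lower; for HUVEC, 0 to 3 genes. Over genes, the deviations of same-numbered JK and JINB8 replicates from their group means had correlations of 0.026, -0.017 and -0.037. The labels do not state whether same-numbered replicates were prepared together, and these correlations cannot settle it. With the replicate block, 104 genes were called, 102 higher and 2 lower, 95 of them among the 125, and for HUVEC 0. Another probeset of FAF2 (-0.026 ± 0.13) and another of MPLKIP (-0.0038 ± 0.067) lay near 0 with a negative sign, while a further probeset of MPLKIP differed by 1.19. The cause was not tested. The 125 called genes kept their direction in every fit that held them, but not always their size. After quantile normalization, 101 of the 125 passed. Among those lost there, PTMA differed by 0.0035 (adjusted p 0.996 in limma), against 0.62 in the main fit. GAPDH differed by 0.33 and ACTG1 by 0.45, against 0.79 and 0.67. The settings without the run of neighbouring probesets and with other probesets of a gene were chosen after seeing the data. Without detection calls, signal could not be set against background.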
